A study of Arabidopsis thaliana with 3 samples.

Results

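The Argonaute genes AGO1 to AGO10 of Arabidopsis thaliana were examined for SPL10 binding, as 10 of the 27444 nuclear protein-coding genes of the RefSeq table. They were chosen by locus number and not by any measured value, although earlier results of these data were known at that time. A peak was assigned to a gene when its summit lay in the gene or within 3000 bp of either end. The series holds 3 leaf samples of the ecotype Col-0, handled alike: 1 input and 2 SPL10 precipitations (replicates 1 and 2), each with its own peak list. All 3 were crosslinked (1% formaldehyde, 10 minutes) and sonicated, and the assay was DAP-seq, which recovers genomic DNA held by a transcription factor and sequences it. Neither a source of the SPL10 protein nor separate plants for the replicates are given in the sources used here. Whether the peaks report binding in leaf chromatin or to isolated DNA can therefore not be told. RNA was not measured, so the leaf label could not be set against marker genes.

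Argonaute proteins carry small RNAs, which guide them to matching transcripts or to nascent RNA at chromatin. The plant family falls into 3 clades: AGO1, AGO5 and AGO10; AGO2, AGO3 and AGO7; and AGO4, AGO6, AGO8 and AGO9. Members of the first clade act mainly with microRNAs, and those of the AGO4 clade mainly in RNA-directed DNA methylation. AGO1, AGO7 and AGO10 are known for roles in leaf polarity, where AGO10 sequesters miR165 and miR166 and so spares HD-ZIP III transcripts such as that of REVOLUTA, the gene named in the series title. SPL10 belongs to the SBP-domain transcription factors, many of which miR156 represses.

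The replicate 1 list held 21574 peaks and the replicate 2 list 21439, with median summits of 47 and 44 tags on the nuclear chromosomes. A tag is a read position extended by the peak caller, and the number at each summit was worked out from its deposited fold and p-value. The input log counted 19553456 read pairs. Fold enrichment is the authors' value at each summit, relative to the caller's background. A peak was called shared when both lists held it at a reciprocal overlap of at least 50%, which applied to 16697 nuclear peaks. At shared peaks the tag split between replicates varied 0.649 times as much as binomial sampling gives, with tags taken at each list's own summit. The replicates were therefore treated as 1 sample, and both values are given with no standard deviation. Values in parentheses after a fold give its 95% counting interval, exact Poisson on the tags with the background held fixed. They cover counting error only, and reads of 1 fragment need not be independent molecules.

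Of the 10 Argonaute genes, 9 had at least 1 shared SPL10 summit in or near the gene, and AGO3 had none. Among all nuclear protein-coding genes 69.7% had one, so 9 of 10 is a common outcome for a gene of this genome. Argonaute genes are long, between percentiles 87.1 and 98.2 of coding genes by length, and 80.1% of the coding genes in their range of lengths had a shared summit. The members held 18 shared summits in all, which is 0.159 per kb of window against 0.140 over coding genes. AGO1, AGO6 and AGO10 each held 3 of them, a number that 11.1% of coding genes and 18.3% of those in the same range of lengths reached. AGO2, AGO5 and AGO9 held 2, which 32.9% and 45.7% reached, and AGO4, AGO7 and AGO8 held 1.

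Strength separated the members more than presence did. The strongest shared peaks of AGO9, AGO10, AGO6, AGO2 and AGO1 were above 7-fold in both replicates, whereas those of AGO7, AGO4 and AGO8 stayed below 4-fold. With only peaks of a q of at most 0.05, 8 of the 10 genes had a shared summit, against 67.7% of coding genes of any length, and AGO8 was lost. At a −log10 q of 10 or more, 6 of the 10 genes still had a shared summit, against 44.3% of coding genes and 52.7% of those in the same range of lengths. With the 5000 strongest nuclear peaks of each list, 5 of 10 had one (AGO1, AGO2, AGO6, AGO9 and AGO10), against 26.1% of coding genes and 31.6% of those in the same range of lengths. The median of the 9 strongest shared peaks was 7.21-fold, against 4.66-fold over coding genes with a shared summit. That order depended on the window: with 2000 bp the medians were 3.37-fold and 4.39-fold, and with 1000 bp 4.196-fold and 4.15-fold. A strongest peak is the highest of all shared summits in a window, and members had a median of 2 such summits against 1 over coding genes. The medians were not matched for length. These counts and medians were not tested, and the members were few.

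**Figure D1:**
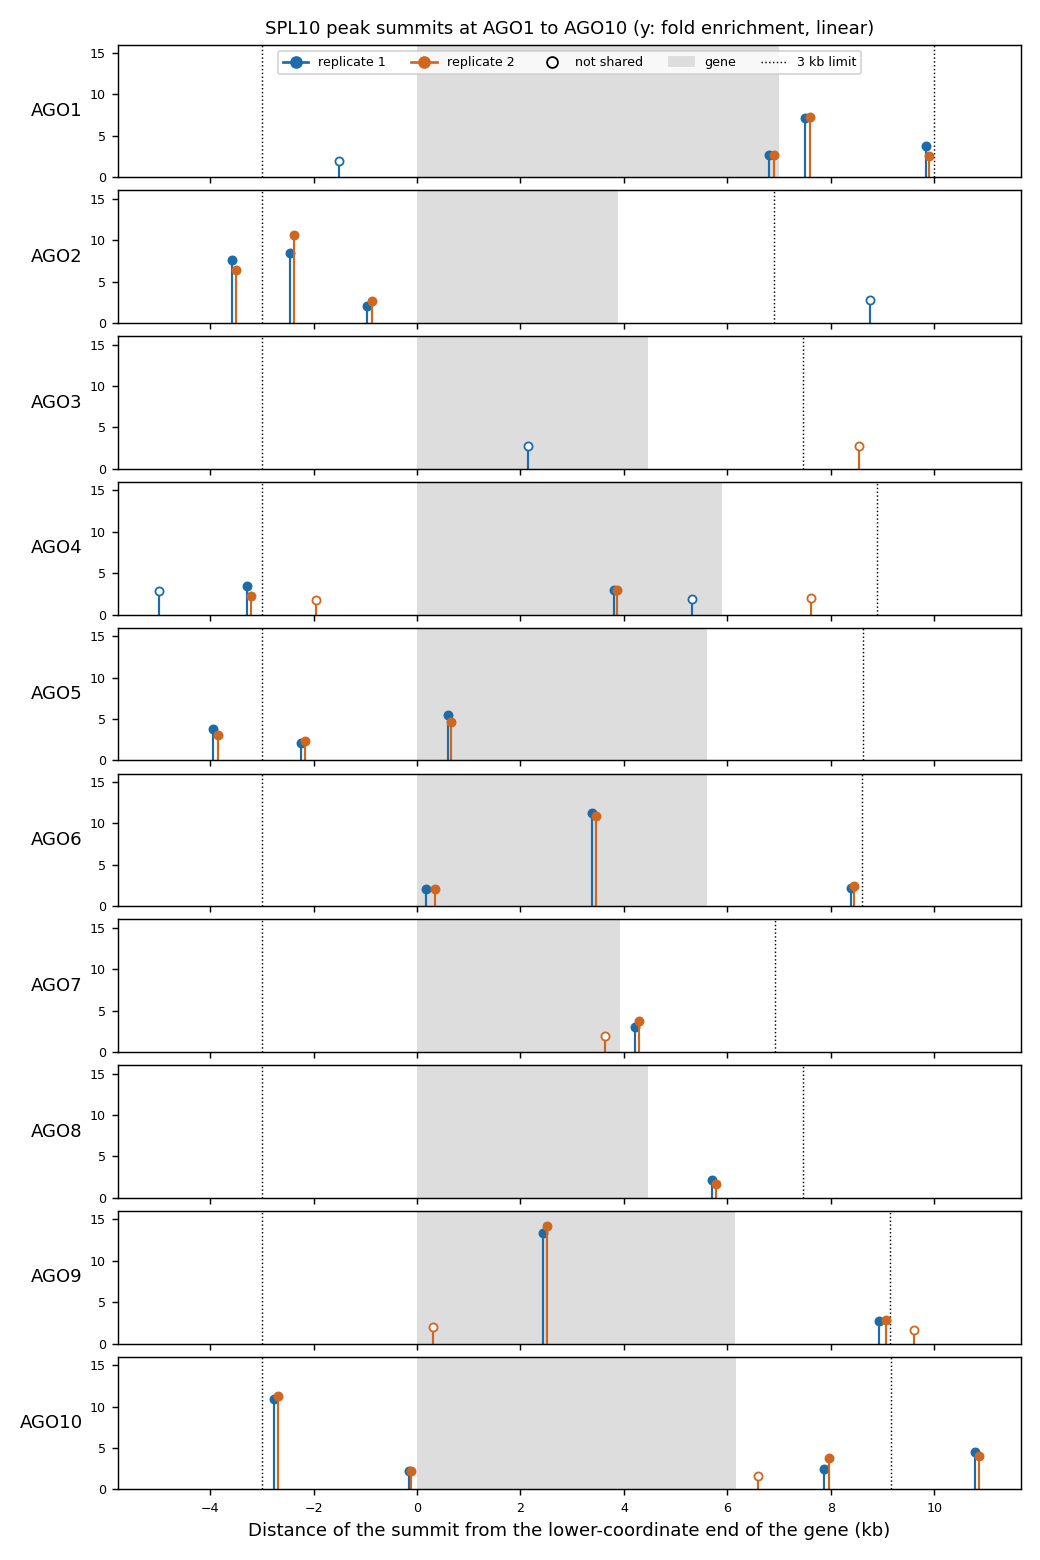
SPL10 peak summits at AGO1 to AGO10. The x axis gives the distance of each summit from the gene's lower-coordinate end in kb (points of the replicates are drawn slightly apart), and the y axis the deposited fold enrichment. Grey bars are genes, dotted lines the 3000 bp limits, filled points shared peaks and open points peaks of 1 replicate. The tallest stems stand inside AGO9 and AGO6, and outside the gene at AGO10, AGO2 and AGO1.

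AGO1 (AT1G48410), the main effector of microRNA silencing, carried its strongest shared peak just beyond its higher-coordinate end, with 7.16-fold (5.85 to 8.69, 100 tags) and 7.25-fold (5.89 to 8.85, 95 tags) in replicates 1 and 2. This peak lay on chromosome 1 at 17893003 to 17893401 (replicate 1, TAIR10), with summits 546 and 560 bp outside the gene and no other coding gene nearer. A weaker shared peak stood inside the gene near the same end, at 2.71-fold and 2.65-fold. These summits, 163 and 134 bp from the end, and the stronger one place 2 shared peaks at one end of AGO1. The third shared peak, at 3.77-fold (2.84 to 4.91) and 2.503-fold (1.74 to 3.50), lay 2885 and 2852 bp off, closer to D-CDES, which codes for a D-cysteine desulfhydrase. On the other side of AGO1 only replicate 1 listed a peak, at 2.01-fold and 1477 bp off, and it lay nearer to AT1G48400.

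AGO10 (AT5G43810), also called ZWILLE or PINHEAD, carried a strong peak far outside the gene, of 10.9-fold (9.27 to 12.8, 153 tags) and 11.3-fold (9.53 to 13.2, 148 tags) in replicates 1 and 2. It lay on chromosome 5 at 17607834 to 17608197 in replicate 1, with the summit 2728 bp below the lower-coordinate end in both replicates. AGO10 was still the nearest coding gene to that summit, which stood outside every coding gene. Close to the gene the signal was much lower: a shared peak 122 and 154 bp off the same end had 2.28-fold and 2.20-fold. On the opposite side, a shared peak 1742 and 1765 bp off had 2.49-fold (1.76 to 3.45) and 3.79-fold (2.82 to 4.98), and lay within 91 and 68 bp of AT5G43822. Only replicate 2 listed a summit 387 bp beyond the higher-coordinate end, with 1.67-fold with −log10 q of 0.474, which does not reach a q of 0.05. Inside AGO10 neither replicate listed a summit.

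AGO5 (AT2G27880), which acts in the germline, had its strongest shared peak inside the gene near the lower-coordinate end. It reached 5.47-fold (4.33 to 6.82, 76 tags) and 4.61-fold (3.54 to 5.91, 60 tags), on chromosome 2 at 11871816 to 11872308 (replicate 1), 635 and 617 bp into the gene. Both values lie near the 4.66-fold median of coding genes with a shared summit. A second, weak shared peak of 2.14-fold and 2.35-fold lay 2199 and 2214 bp below the gene, at nearly the same distance from AXS1, which codes for an enzyme of nucleotide sugar synthesis.

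In the second clade, AGO2 and AGO3 are adjacent, with no coding gene between them, and their values differed. AGO2 (AT1G31280), known for antiviral defence and for regulation by miR403, had a strong peak of 8.51-fold (7.06 to 10.16, 119 tags) and 10.6-fold (8.97 to 12.6, 140 tags). Its summits lay 2418 and 2422 bp below AGO2 and inside the neighbouring coding gene AT1G31270, on chromosome 1 at 11178897 to 11179259 (replicate 1). The only shared summits for which AGO2 itself was the nearest coding gene stood 928 and 908 bp below it, at 2.09-fold (1.52 to 2.82) and 2.71-fold (2.01 to 3.58). At these the local background was raised to 15 and 14 tags, against a genome level of 10.19. No summit of either list lay inside AGO2.

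AGO3 (AT1G31290) had no shared peak. Replicate 1 listed a peak inside the gene, at 2.72-fold (2.003 to 3.61, 45 tags) with −log10 q of 5.71, and replicate 2 listed none within the 3000 bp limit. The DNA between AGO2 and AGO3 held no shared summit. The strong peak of the pair was thus on the side of AGO2 that faces away from AGO3. A value for AGO3 in replicate 2 cannot be given, since a peak list holds only sites that passed the caller.

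AGO7 (AT1G69440), also called ZIPPY, binds miR390 and starts the TAS3 pathway that restrains abaxial leaf identity genes. Its 1 shared peak was moderate, at 3.06-fold (2.23 to 4.11, 42 tags) and 3.71-fold (2.76 to 4.89, 48 tags). It stood on chromosome 1 at 26105537 to 26105801 (replicate 1), 328 and 336 bp beyond the higher-coordinate end, with AGO7 as the nearest coding gene. Replicate 2 alone added a peak inside the gene at 1.97-fold.

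**Figure D2:**
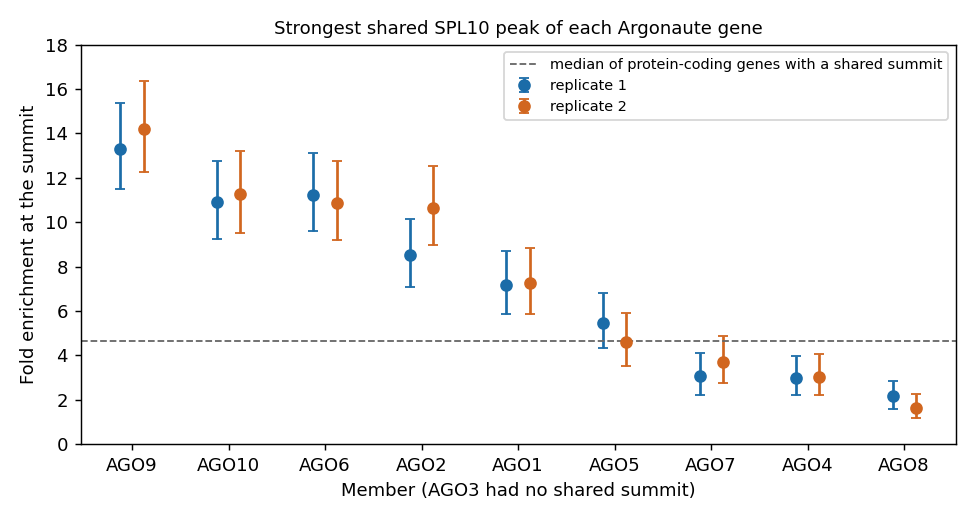
Fold enrichment of the strongest shared peak of each Argonaute gene within 3000 bp, in the order of the mean of both replicates. Points are the deposited folds of replicates 1 and 2 and bars their 95% counting intervals. The dashed line is the median over coding genes with a shared summit (4.66-fold). Values fall from 13.3-fold and 14.2-fold at AGO9 to 2.16-fold and 1.65-fold at AGO8.

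The AGO4 clade held the widest range. AGO9 (AT5G21150), known for its part in female gamete formation, carried the strongest peak of the family, of 13.3-fold (11.5 to 15.4) and 14.2-fold (12.2 to 16.4), with 187 tags in each replicate. The peak lay inside the gene on chromosome 5 at 7194488 to 7194893 (replicate 1), with summits 2476 and 2463 bp from the lower-coordinate end. Its −log10 q was 112 and 122. Among shared nuclear peaks its mean fold stood at percentile 95.9, and among coding genes with a shared summit AGO9 stood at percentile 93.6. A shared summit of at least this strength inside the gene was found in 1.01% of all coding genes. Among the 7303 with any shared summit inside, the share was 3.81%. Neither share was matched for length, and inside summits were more common among genes of the members' lengths (48.1% against 26.6% of all). A second shared peak, of 2.78-fold and 2.88-fold, lay 2834 and 2887 bp past the gene and inside LARP1a, a gene for an RNA-binding protein of the La family.

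AGO6 (AT2G32940), which acts in RNA-directed DNA methylation, also carried its strong peak inside the gene. It reached 11.2-fold (9.60 to 13.1, 162 tags) and 10.9-fold (9.21 to 12.8, 147 tags) on chromosome 2 at 13975129 to 13975510 (replicate 1), with summits 3417 and 3423 bp from the lower-coordinate end. A shared summit of at least this strength inside the gene was found in 1.86% of all coding genes and in 6.98% of the 7303 with any inside. These shares were not matched for length either, and inside summits alone were likewise looked at after seeing the data. Its 2 weaker shared peaks were 2.09-fold and 2.12-fold inside the gene near its lower-coordinate end, and 2.21-fold and 2.43-fold inside COP1, the neighbouring gene for a ubiquitin ligase that represses light responses. The former summits were 111 bp apart between replicates, the widest gap among the shared peaks of the family, whose median gap was 16.5 bp.

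AGO4 (AT2G27040), the main Argonaute of RNA-directed DNA methylation, had only a weak shared peak, of 2.998-fold (2.22 to 3.97, 46 tags) and 3.02-fold (2.20 to 4.05, 42 tags). It lay inside the gene on chromosome 2 at 11540228 to 11540452 (replicate 1), 3839 and 3829 bp from the lower-coordinate end. Another 3 peaks were listed in 1 replicate each, from 1.82-fold to 2.04-fold, and those at 1.93-fold and 1.82-fold had a q above 0.05. AGO8 (AT5G21030), which the RefSeq table lists by locus number alone, had the weakest strongest peak, of 2.16-fold (1.59 to 2.86, 45 tags) and 1.65-fold (1.19 to 2.25, 38 tags). That peak lay 1294 and 1288 bp past AGO8 and inside FBX2, an F-box protein gene. Its replicate 2 value had −log10 q of 1.27, which does not reach a q of 0.05. The local background there was 16 and 19 tags, the highest among the peaks of the family. Neither list held a summit inside AGO8.

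AGO8 and AGO9 belong to one clade and lie on one chromosome but are not adjacent. Between them lie 12 coding genes and 47966 bp with 8 shared summits, the strongest at 13.2-fold and 12.6-fold. Their own strongest peaks stood at opposite ends of the family's range, with counting intervals that did not overlap in either replicate.

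Ordered by the mean of both replicates, the strongest shared peaks ran AGO9, AGO10, AGO6, AGO2, AGO1, AGO5, AGO7, AGO4 and AGO8. In none of the 8 steps of this order were the counting intervals of neighbours apart in both replicates, so the exact rank of a gene is not resolved. Of the 36 pairs, 23 had intervals apart in both replicates. AGO9, AGO10 and AGO6 each stood above AGO1, AGO5, AGO7, AGO4 and AGO8 in both, and AGO2 above AGO5, AGO7, AGO4 and AGO8. With 3000 bp each clade held a gene above 8-fold in both replicates, and each held a gene below 6-fold or without a shared peak. For the clade of AGO2, AGO3 and AGO7 the former rested on the AGO2 peak inside AT1G31270. By nearest coding gene, or with 1000 or 2000 bp, AGO2 had a mean of 2.38-fold and the highest value of that clade was 3.37-fold at AGO7. For the clade of AGO1, AGO5 and AGO10, the value above 8-fold rested on the AGO10 peak 2728 bp off. With 1000 and 2000 bp AGO10 had means of 2.24-fold and 3.07-fold, and the highest value of its clade was 7.21-fold at AGO1. In these narrower windows only the AGO4 clade held a gene above 8-fold.

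**Figure D3:**
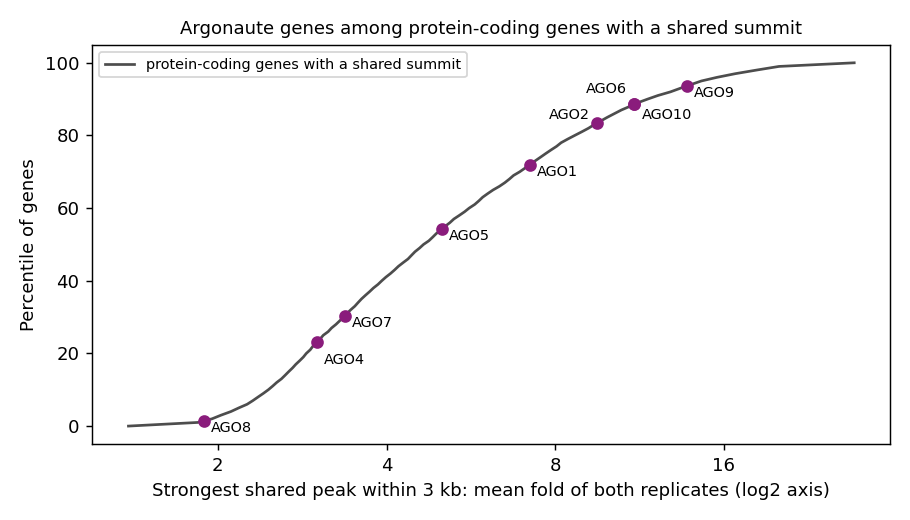
Argonaute genes among all protein-coding genes with a shared summit. The x axis gives the mean fold of the strongest shared peak within 3000 bp (log2 axis) and the y axis the percentile among those genes, the line being all such genes and the points the 9 members. AGO9, AGO10, AGO6 and AGO2 lie above percentile 83, and AGO8 at percentile 1.35.

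Among coding genes with a shared summit, AGO10 and AGO6 both stood at percentile 88.6, AGO2 at 83.5 and AGO1 at 71.9. AGO5 stood near the middle at 54.3. AGO7, AGO4 and AGO8 stood at 30.4, 23.2 and 1.35. The family therefore spanned almost the whole range of the genome. Percentiles are a description of fold with no test and were not matched for gene length.

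The 18 shared summits differed in where they lay. Inside the Argonaute gene stood 6 of them, in AGO1, AGO4, AGO5, AGO6 (which held 2) and AGO9. Thus 5 of 10 members had a shared summit in the gene itself, against 26.6% of all coding genes and 48.1% of those in the same range of lengths. The Argonaute gene was the nearest coding gene for 11 of the 18, and the other 7 lay in or nearer to a neighbour. The strong AGO2 peak belonged to the latter, as did the only AGO8 peak. Which end of each gene holds the promoter was not used here, and exons, introns and UTRs were not told apart.

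In the windows, assignments and sharing rules given next, the count of members stayed at 8 to 10, while the share of coding genes of any length moved more. With 1000 bp on either side 8 of 10 members had a shared summit, against 45.9% of coding genes, and with 2000 bp 9 of 10 had one against 59.9%. With 5000 bp 9 of 10 had one against 83.1%. When each summit was given to its nearest coding gene alone, 8 of 10 members kept one against 40.3% of coding genes, and the gene lost was AGO8. In the peaks of replicate 1 alone all 10 members had a summit, against 79.2% of coding genes, and in those of replicate 2 alone 9 had one, against 78.8%. Sharing by any overlap, or by summits at most 100 bp apart, left 9 of 10 against 71.5% and 70% of coding genes. The shares above are over coding genes of any length, most of them shorter than the members. Shares for genes of the members' lengths were not computed in these settings. Where they were computed they were higher, as with 3000 bp (80.1% against 69.7%), so part of these gaps may reflect length. With summits inside the gene only, a setting chosen after seeing the data, 5 of 10 members had one. There the share of genes of the members' lengths was 48.1%, so the count of members did not hold steady beside that share.

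The limit of 3000 bp decided which peaks were counted. Just inside it stood the shared peaks of AGO1 at 2885 and 2852 bp, of AGO9 at 2834 and 2887 bp, of AGO6 at 2829 and 2811 bp and of AGO10 at 2728 bp. Just outside lay a shared peak 3253 and 3256 bp below AGO4, inside the calmodulin gene CAM5, at 3.46-fold and 2.29-fold. A stronger one, of 7.66-fold and 6.43-fold, lay 3533 and 3531 bp below AGO2 and nearer to AT1G31270. With the AGO2 peak inside that neighbour it formed 2 strong summits on one side of AGO2.

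The replicates gave close values at most of the members' shared peaks. Replicate 1 listed 21 summits in the members' windows and replicate 2 listed 23, of which 18 were shared. The 8 unshared ones were weak, at 2.72-fold or less. The widest differences were at the AGO10 peak near AT5G43822 (2.49-fold against 3.79-fold) and the AGO1 peak near D-CDES (3.77-fold against 2.503-fold), which ran in opposite directions. At none of the 18 shared peaks did the difference in tag numbers pass the test (exact binomial test, two-sided, smallest unadjusted p = 0.0619, adjusted p = 1 for each, Benjamini-Hochberg over 16670 shared peaks). Over all those peaks 0.006% passed, which is 1 peak, and 215 had an unadjusted p under 0.05. Only peaks held by both lists entered this test, so a peak of 1 replicate, such as that inside AGO3, could not be tested. The tag split also varied 0.649 times as much as binomial sampling gives, which makes a pass unlikely. The test therefore cannot show that the replicates agree. A p that misses the threshold does not show that the replicates were alike at weak peaks, whose intervals are wide.

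**Figure D4:**
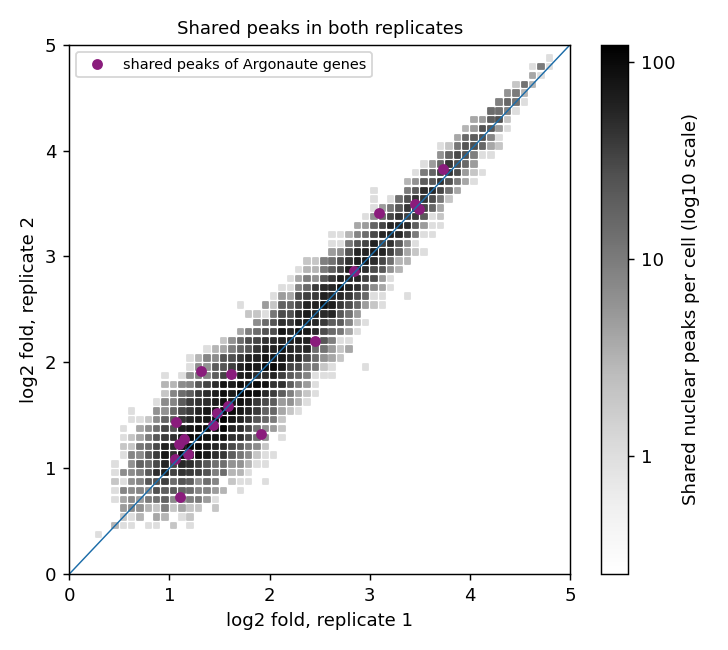
Shared nuclear peaks by log2 fold in replicate 1 (x axis) and replicate 2 (y axis). Grey cells are counts of all 16697 shared peaks (log10 grey scale), purple points the 18 shared peaks of Argonaute genes, and the line marks equal values. The Argonaute peaks follow the cloud, and 4 of them exceed 8-fold in both replicates.

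Argonautes work with dicers, RNA polymerases and double-stranded RNA binding proteins, and the same assignment was made for 22 protein genes of these pathways. Of them 18 had a shared summit within 3000 bp, and the strongest peaks of those 18 had a median of 6.99-fold. The 22 genes were not matched for length. A shared summit was found for 69.7% of coding genes, as given above, and for 80.1% of those in the Argonaute genes' range of lengths. The genes SE, SGS3, DRM2 and SHH1 had none. NRPD1, HST and DCL2 had higher folds than AGO9 in both replicates, with intervals apart from those of AGO9 in both for NRPD1 alone. NRPD1 (AT1G63020), the largest subunit of RNA polymerase IV, had 18.8-fold (16.6 to 21.2) and 20.4-fold (18.03 to 22.95), at a summit 928 bp off and 926 bp from AT1G63010. HST (AT3G05040), known for its part in microRNA export, had 17.1-fold (14.99 to 19.4) and 16.9-fold (14.8 to 19.3) inside the gene.

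DCL2 (AT3G03300), a dicer of viral defence, had 16.1-fold (14.1 to 18.4) and 15.8-fold (13.7 to 18.1) inside the gene. DCL4 (AT5G20320), the dicer of the TAS3 pathway, had 10.3-fold (8.75 to 12.2) and 12.1-fold (10.3 to 14.1) inside the gene. SQN (AT2G15790), a cyclophilin that aids AGO1, had 10.4-fold (8.89 to 12.2) and 10.3-fold (8.69 to 12.1) inside the gene. NRPD2 (AT3G23780), the second subunit of RNA polymerases IV and V, had 9.28-fold (7.87 to 10.9) and 8.06-fold (6.72 to 9.61) inside the gene. With the 5000 strongest peaks of each list, 11 of the 22 genes kept a shared summit. The share was 26.1% of coding genes and 31.6% of those in the Argonaute genes' range of lengths.

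**Figure D5:**
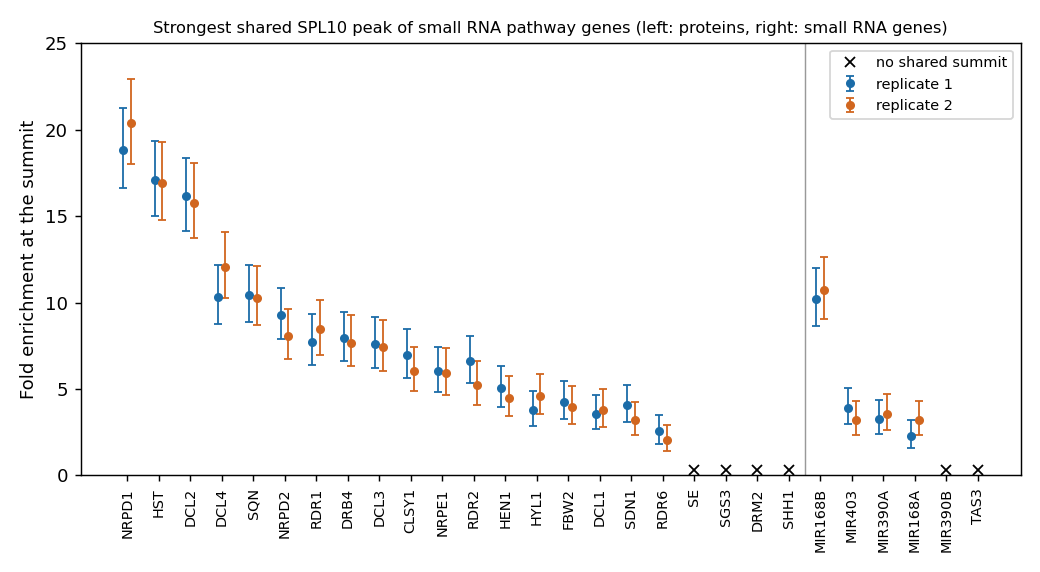
Fold enrichment of the strongest shared peak within 3000 bp of 22 protein genes (left of the line) and 6 small RNA genes (right) that act with Argonautes. Points are the deposited folds of replicates 1 and 2, bars their 95% counting intervals, and crosses genes without a shared summit, drawn near 0. NRPD1, HST and DCL2 lead the proteins and MIR168B the small RNA genes.

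Of the 6 small RNA genes that act on or through Argonautes, 4 had a shared summit, against 63.2% of microRNA genes. That share does not cover TAS3, which is listed as a noncoding RNA gene and not as a microRNA gene. MIR168B, whose microRNA targets AGO1, had the strongest, of 10.21-fold (8.62 to 12.01) and 10.7-fold (9.04 to 12.6), although that summit lay about 1530 bp off and 370 bp from BMY2, a beta-amylase gene. MIR168A, the other source of miR168, had 2.28-fold (1.58 to 3.20) and 3.18-fold (2.31 to 4.28) at 784 bp. The 2 MIR168 genes thus had intervals apart in both replicates. MIR403, whose microRNA targets AGO2, had 3.91-fold (2.96 to 5.07) and 3.18-fold (2.31 to 4.28), at a summit inside the coding gene AT2G47280. MIR390A, a source of the partner of AGO7, had 3.27-fold (2.41 to 4.35) and 3.56-fold (2.63 to 4.72), while MIR390B and TAS3 had no shared summit.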

How the data were processed

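Each peak list held, as deposited by the authors, positions, a fold enrichment (ratio to the caller's background), the summit's −log10 p and −log10 q, and a score that was within 1 of 10 times the −log10 q. Peaks were called per replicate, and the peak names in the lists name MACS. Per the submitters' processing notes, cutadapt and the TAIR10 build were used, and neither threshold nor control is given in the sources used here. The input log also holds 2 warnings about an unreadable file.

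From these, tags were recovered from fold and p-value (tolerance 0.02 tags) for 99.9% of peaks in each list, with a single solution for 95.2% and 94.2%. Tested on simulated lists, recovery returned 100% of 2843 and 99.5% of 2860 summits. Genes and distances came from the RefSeq table of TAIR10.1, whose gene coordinates are not printed. It gives no strand, and no sequence was used, so the planned motif search and protein comparison were not run. The members, windows and lists were chosen with earlier results of these data known. All 10 members are named, with at most 6 pathway proteins of highest mean fold and every small RNA gene. The mean fold is the geometric mean of both replicates. The replicate test was exact binomial with Benjamini-Hochberg adjustment at 0.05. Python 3.11.15, numpy 2.4.6, scipy 1.17.1 and pandas 2.3.3 were used.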

Additional observations from a re-analysis of the deposited data

How the results depend on the processing

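The number of Argonaute genes with a shared summit, 9 in the setting reported, was 5 with the 5000 strongest peaks of each list and 5 with summits inside the gene only, a setting chosen after seeing the data. It was 6 to 10 under every other alternative, and 9 to 10 without one of the replicates (AGO3 entered with replicate 1 alone). The share of coding genes, 69.7%, moved under more of the alternatives: it was 44.3% at a −log10 q of 10 or more, 26.1% with the 5000 strongest peaks, 45.9% with 1000 bp, 40.3% when a summit went to the nearest coding gene alone and 26.6% inside the gene. Limiting the background to coding genes in the members' range of lengths, also chosen after seeing the data, gave 80.1%. The pathway proteins with a shared summit fell from 18 to 11 with the 5000 strongest peaks. The small RNA genes fell from 4 to 1 at a −log10 q of 10 or more, with the 5000 strongest peaks or with 1000 bp, and to 0 inside the gene. They cannot be assigned by nearest coding gene.

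The median of the members' strongest shared peaks, 7.21-fold, was 11.1-fold with the 5000 strongest peaks (8.96-fold over coding genes). That setting keeps only peaks of high fold, so both medians rise. The members' median was 4.196-fold with 1000 bp (4.15-fold over coding genes) and 3.37-fold with 2000 bp (4.39-fold over coding genes). It thus stood above that of coding genes with 3000 bp and below it with 2000 bp. Windows of 1000 and 2000 bp leave out the strong AGO10 peak at 2728 bp and the strong AGO2 peak at 2418 and 2422 bp. With 2000 bp these were the only members whose strongest value changed. Why these peaks lie that far from the genes was not tested. In these narrower windows AGO2 fell to 2.38-fold, and AGO10 to 2.24-fold with 1000 bp and 3.07-fold with 2000 bp. AGO2 also had 2.38-fold by nearest coding gene, and AGO1 2.68-fold inside the gene. No paired analysis was possible because only 1 group has peak lists and its results come from no comparison of groups. Depth limits the weak peaks, where 21 to 50 tags leave wide counting intervals.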
